A study of Capra hircus with 3 samples.

Results

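The miRNAs miR-193a, miR-193b, miR-365 and miR-455 were examined in small RNA libraries of goat skin. They were picked as miRNAs known from fat cells, and miR-193a also for its low level in catagen, so that the contrasts of miR-193a with catagen chose it and are given below as a description without a test. Their reads were found by sequence. The study annotated clean tags, which are distinct read sequences with a read count, as conserved miRNAs, and 84 of the 2697 distinct annotated tags used here belong to these miRNAs (1 for miR-193a, 28 for miR-193b, 42 for miR-365 and 13 for miR-455). A deposited tag was counted for an arm when its first 18 nt lay in an annotated tag of that arm and of no other arm, whatever followed. In this way 8 arms of 4 miRNAs were obtained, out of 306 miRNAs obtained by the same rule, and 1128 distinct tags were counted for the 8 arms. The 2697 tags come from a shortened copy of the annotation, so miRNAs outside it were not counted and the total of the series is not given here. The 5p arm of miR-193a was not analysed here.

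The libraries represented anagen, the growth phase of the hair follicle, catagen, its regression, and telogen, its rest. The samples were flank skin of adult Shanbei White cashmere goats, and each of the 3 libraries held the RNA of 10 goats pooled before extraction, with 1 library per stage. There was therefore no biological replicate, and every interval and p-value below covers counting error only and compares libraries, not stages. PCR copies of a molecule were not distinguished from separate molecules. The anagen, catagen and telogen libraries were 15997828, 18111912 and 27016012 clean reads deep, and levels are given as TPM, the reads per 1000000 clean reads. In the same order, the arms of these miRNAs held 16481, 21473 and 38745 reads, or 1030, 1186 and 1434 TPM.

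A miRNA is cut from the stem of a hairpin, whose 5′ and 3′ sides give the 5p and the 3p arm, and it binds its targets mainly through its seed, bases 2 to 8. The miR-193b and miR-365 hairpins are encoded side by side in mammals and are known for their abundance in brown fat and for promoting its formation. miR-365 is made from a pair of gene copies with the same 3p arm, and miR-193a is the close relative of miR-193b. In humans, a copy of miR-365 lies beside miR-193b and the other copy near miR-193a. miR-455 lies within the collagen gene COL27A1, also in the gene table of the goat assembly, is known from cartilage, and has been described as a promoter of brown fat formation. The dermis of mice contains a fat layer that thickens and thins with the hair cycle. Skin is a mixture of cell types, and in such bulk RNA fewer cells of a type and less RNA per cell cannot be told apart. The tags carry no record of the cell they came from, and a fat cell origin of these reads was not tested.

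The most abundant tag of each arm is printed below, 5′ to 3′ as sequenced, with the seed in capitals, because the seed and the 3′ end carry the differences that follow.
miR-193a-3p: aACTGGCCtacaaagtccca
miR-193b-3p: aACTGGCCcacaaagtcccgct
miR-193b-5p: cGGGGTTTtgagggcgagatga
miR-365-3p: tAATGCCCctaaaaatccttat
miR-365-1-5p: aGGGACTTttgggggcagatgtg
miR-365-2-5p: aGGGACTTtcaggggcagctgtg
miR-455-3p: gCAGTCCAtgggcatatacacc
miR-455-5p: tATGTGCCtttggactacatcg

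The 3p arms of miR-193a and miR-193b had the same seed, ACTGGCC. Within their first 18 nt they differed at a single base, C9T with the base of miR-193b first and positions counted from the 5′ end of the tag. The 5p arms of the miR-365 copies also shared a seed, GGGACTT, and differed at 3 of 23 positions (T10C, G11A and A19C, with copy 1 first). No seed was shared between miR-193, miR-365 and miR-455. Over 20 nt of their most abundant tags the miR-193 3p arms differed at 2 positions, 9 and 20. Because 1 base separates their first 18 nt, by which tags were assigned, a sequencing error in miR-193b could be counted as miR-193a. The tags with the start of miR-193a numbered 73.3%, 39.0% and 68.7% of those with the start of miR-193b in anagen, catagen and telogen. The other 53 single-base variants of the miR-193b start reached at most 0.292%, 0.243% and 0.295% of it. The miR-193a reads were thus far above the level of any other single-base variant in every library.

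The 3p arms of miR-193b, miR-365 and miR-193a were the most abundant of the 8. For anagen, catagen and telogen, miR-193b-3p stood at 331, 399 and 520 TPM (5296, 7218 and 14038 reads). miR-365-3p stood at 326, 426 and 323 TPM (5209, 7710 and 8727 reads). miR-193a-3p stood at 236, 151 and 346 TPM (3783, 2740 and 9351 reads). In anagen miR-193b-3p, miR-365-3p and miR-193a-3p ranked 26, 28 and 31 among 428 arms with reads. In catagen miR-365-3p and miR-193b-3p ranked 27 and 28 of 440 and miR-193a-3p had dropped to 40. miR-455-3p followed with 58.8, 90.2 and 148 TPM (941, 1634 and 3985 reads), and its rank was 61, 57 and 40 in the 3 libraries. These ranks leave out tags shared between arms and tags outside the shortened annotation. Abundant miRNAs such as let-7a were therefore ranked with only part of their reads, and the ranks do not hold among all miRNAs of the skin. Each 5p arm lay below the 3p arm of the same miRNA in every library, where the 3p reads of miR-365 come from both copies. Levels of different arms are reads, and the efficiency with which a sequence is ligated and copied was not measured.

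**Figure D1:**
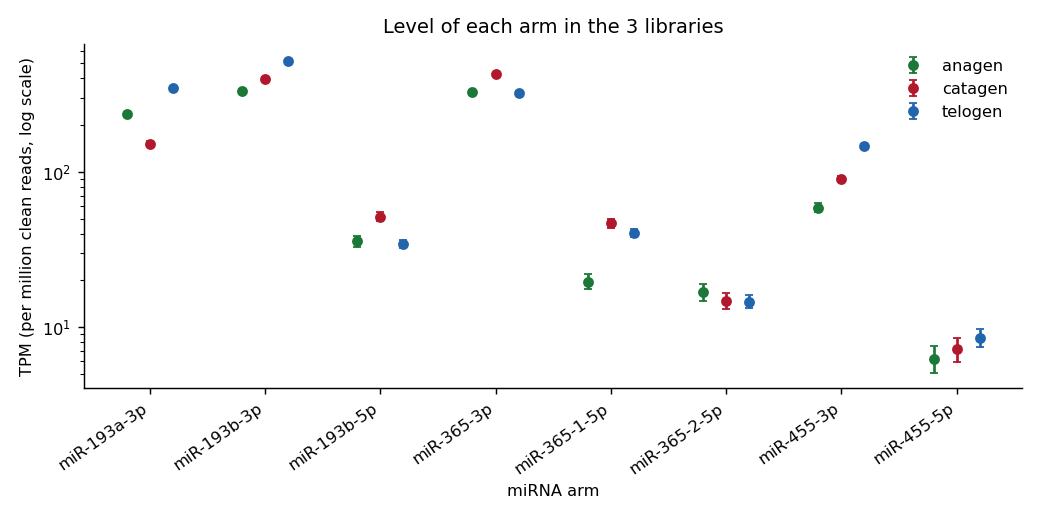
Level of the 8 arms in TPM on a log axis. Points are the 3 libraries, 1 per stage, and bars are 95% exact intervals from counting error. miR-193a-3p is lowest in catagen at 151 TPM, miR-455-3p rises from 58.8 to 148 TPM across the columns for anagen, catagen and telogen, and miR-365-2-5p stays between 14.6 and 16.8 TPM.

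Of these 3p arms, miR-193a-3p had its lowest level in catagen and the others in anagen or, by a small margin for miR-365-3p, in telogen, except that miR-193b-3p was also lowest in catagen when the libraries were scaled by the median of ratios. The log2 ratio of miR-193a-3p was -0.64 for catagen over anagen (95% interval -0.72 to -0.57) and 1.19 for telogen over catagen (1.13 to 1.26), against medians of 0.41 and -0.11 over all arms tested. For telogen over anagen it was 0.55 (0.50 to 0.60, Audic-Claverie exact test, p = 3.20e-91), below the log2 ratio of 1 used as a limit here. The low level in catagen was seen in the short tags and not in the longer ones. For anagen, catagen and telogen, tags of 18 to 20 nt held 63.0%, 11.2% and 43.9% of the miR-193a-3p reads (2383 of 3783, 306 of 2740 and 4103 of 9351 reads). On the TPM scale the short reads stood at 149, 16.9 and 152, so that catagen was 8.82 times below anagen. Reads of 21 nt or longer stood at 87.5, 134 and 194 TPM, with a log2 ratio of 0.62 for catagen over anagen (0.52 to 0.71). Among these longer reads anagen, not catagen, was the lowest library, and the direction of the contrast was the opposite of that over all lengths.

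The short class was made up almost entirely of the 20-nt tag printed above, which held 91.5%, 94.1% and 95.3% of it in anagen, catagen and telogen. The tags that show where the arm ends are printed here with their seeds in capitals.
miR-193a-3p, 20 nt: aACTGGCCtacaaagtccca
miR-193a-3p, 21 nt: aACTGGCCtacaaagtcccag
miR-193a-3p, 21 nt with a different last base: aACTGGCCtacaaagtcccat
miR-193a-3p, 22 nt: aACTGGCCtacaaagtcccagt

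From anagen through catagen to telogen, the 20-nt tag had 2181, 288 and 3910 reads, or 136, 15.9 and 145 TPM. Anagen and telogen were close on this scale (log2 ratio 0.09, 0.01 to 0.16), and catagen lay 8.57 times below anagen (log2 ratio -3.10, -3.28 to -2.92). The 22-nt tag, which continues the 20-nt tag by 2 bases, went the other way between anagen and catagen. It had 616, 1240 and 2179 reads, or 38.5, 68.5 and 80.7 TPM, with a log2 ratio of 0.83 for catagen over anagen (0.69 to 0.97). The 21-nt tag ending in g had 380, 387 and 1499 reads, or 23.8, 21.4 and 55.5 TPM. It was high in telogen and about level between anagen and catagen (-0.15, -0.36 to 0.06). The 21-nt tag ending in t had 7.31, 10.2 and 16.2 TPM. Without the 20-nt tag the arm stood at 100.1, 135 and 201 TPM. At least 99.4% of the miR-193a-3p reads in every library began at the main start, and the 4 tags printed here share it, so their lengths differ at the 3′ end and their seed is the same. Whether the last bases are encoded by the hairpin was not tested, since no hairpin sequence was used here.

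**Figure D2:**
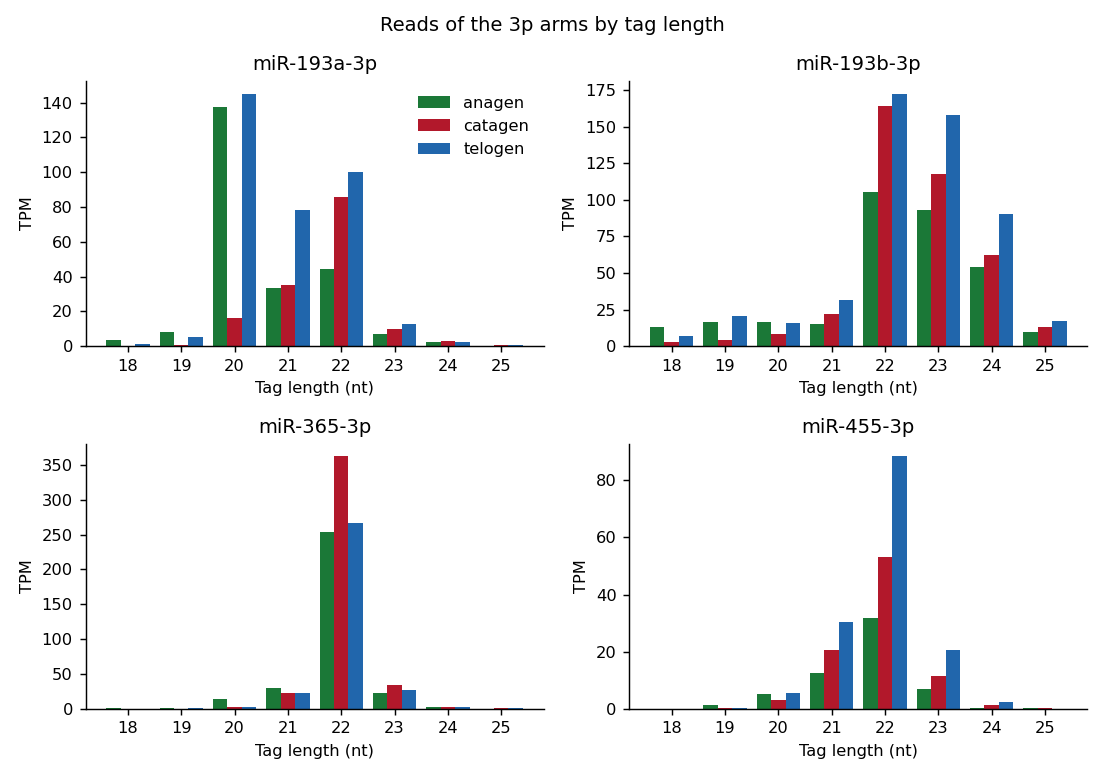
Reads of the 3p arms by tag length from 18 to 25 nt, in TPM, with 1 bar per library. For miR-193a-3p the 20-nt class falls from 137 TPM in anagen to 16.2 in catagen and stands at 145 in telogen, while its 22-nt class is 44.5, 85.9 and 99.9 TPM; the other arms peak at 22 nt in all 3 libraries.

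Fewer short reads in catagen were a feature of most miRNA arms in these libraries. Of the 149 arms with at least 100 reads in every library, 131 had a smaller share under 21 nt in catagen than in anagen, and 95 (63.8%) had a smaller share than in both other libraries. For anagen, catagen and telogen the median share over these arms was 8.36%, 2.68% and 3.88%. In the same direction, the median log2 ratio of catagen over anagen was -1.18 for the reads under 21 nt (133 arms) and 0.45 for the reads of 21 nt or longer (149 arms). The ratio of the short miR-193a-3p reads, -3.14, was the 10th lowest of the 133, and that of its longer reads, 0.62, was the 58th highest of the 149. The fall of its short share from anagen to catagen, 51.8 percentage points, was the 4th largest after one arm each of miR-382, miR-154c and miR-144. Since miR-193a was chosen for its low level in catagen, these ranks are a description only. Small RNAs of 18 to 30 nt had been cut from a gel for each library, and the part of that step in the length differences was not tested.

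The other arms held fewer short reads. The share under 21 nt was 14.05%, 3.81% and 8.33% in anagen, catagen and telogen for miR-193b-3p, lowest in catagen as for miR-193a-3p. It was 4.88%, 0.752% and 1.23% for miR-365-3p, and 11.3%, 4.04% and 3.94% for miR-455-3p. The 95% Wilson intervals of anagen and catagen did not overlap for these 3 arms. With tags of 21 nt or longer, miR-193b-3p kept its direction, with log2 ratios of 0.43 for catagen over anagen and 0.31 for telogen over catagen.

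**Figure D3:**
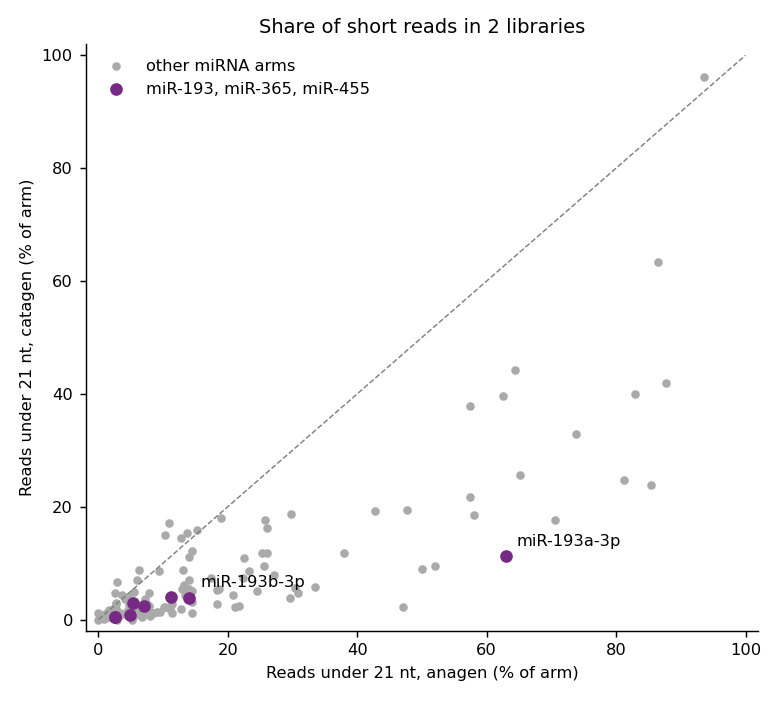
Share of reads under 21 nt, in percent of each arm's reads, in anagen (horizontal) and catagen (vertical) for 149 arms with at least 100 reads in every library. The dashed line marks equal shares, 131 arms lie below it, and miR-193a-3p lies at 63.0% and 11.2%.

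The longest tags of miR-193b-3p went past 22 nt. Its 22-nt tag held 29.1%, 37.9% and 30.3% of its reads in anagen, catagen and telogen. The tag with 1 further t stood at 61.4, 81.9 and 103.9 TPM and held 18.6% and 20.5% in anagen and catagen. The tag with 2 further t bases held 8.59%, 8.53% and 9.67%. The order of the 3 tags was the same in every library.
miR-193b-3p, 23 nt: aACTGGCCcacaaagtcccgctt
miR-193b-3p, 24 nt: aACTGGCCcacaaagtcccgcttt

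The balance between the miR-193 relatives differed with the lengths counted. Of the reads of both 3p arms, miR-193a took 41.7%, 27.5% and 39.98% in anagen, catagen and telogen. Among reads of 21 nt or longer its share was 23.5%, 25.96% and 29.0%. Counted in this way miR-193a was the smaller part in every library, and catagen lay between anagen and telogen.

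miR-193b-3p was highest in telogen. Its log2 ratio was 0.65 for telogen over anagen (0.60 to 0.70; Audic-Claverie exact test, p = 1.04e-182) and 0.38 for telogen over catagen (0.34 to 0.42). For catagen over anagen it was 0.27, which is below the median of 0.41 over all arms and turned to -0.08 when the libraries were scaled by the median of ratios. The opposite arm, miR-193b-5p, was highest in catagen. It stood at 35.6, 51.5 and 34.3 TPM in anagen, catagen and telogen (570, 932 and 927 reads), a log2 ratio of -0.58 for telogen over catagen (-0.72 to -0.45, exact test, p = 3.00e-18). The arms of one hairpin therefore moved in opposite directions from catagen to telogen. The 5p share of miR-193b was 9.72% (8.99 to 10.5) in anagen, against 11.4% (10.8 to 12.1) for catagen and 6.19% (5.82 to 6.59) for telogen. This share does not depend on the scaling of the libraries.

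The 5p arm of miR-193b also began at a pair of positions. Tags that started 1 base upstream of the main tag, and so carried the seed CGGGGTT, held 17.4%, 20.3% and 14.02% of its reads. The leading tag of this form had 18, 59 and 25 reads.
miR-193b-5p, 1 base upstream: tCGGGGTTttgagggcgagat

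The 3p arm of miR-365, shared by both gene copies, was highest in catagen and level between anagen and telogen. Its log2 ratio was 0.39 for catagen over anagen (0.34 to 0.44), close to the median of 0.41 over all arms tested. The median of ratios shifted every log2 ratio of this pair by -0.34. For telogen over catagen the ratio of miR-365-3p was -0.40 (-0.44 to -0.35), beside a median of -0.11. For telogen over anagen it was -0.01 (-0.06 to 0.04), which became 0.26 when the libraries were scaled to the reads assigned to miRNAs. The 22-nt class held 77.8%, 85.1% and 82.6% of its reads. This was the most uniform of the 3p arms, with at least 99.6% of the reads at the main start.

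The copies of miR-365 can be told apart by their 5p arms, and these did not move together. For anagen, catagen and telogen, miR-365-1-5p had 314, 843 and 1093 reads, or 19.6, 46.5 and 40.5 TPM. miR-365-2-5p had 268, 266 and 394 reads, or 16.8, 14.7 and 14.6 TPM. On the scale of clean reads copy 1 was low in anagen and higher in the other libraries, whereas the levels of copy 2 had overlapping intervals in all 3. The log2 ratio of miR-365-1-5p was 1.25 for catagen over anagen (1.06 to 1.44, exact test, p = 5.31e-43) and 1.04 for telogen over anagen (0.86 to 1.23, p = 5.59e-33). For miR-365-2-5p these ratios were -0.19 (-0.44 to 0.06, exact test, p = 0.128) and -0.20 (-0.43 to 0.03, p = 0.0794). The median of ratios shifted every log2 ratio of these pairs by -0.34 and -0.18, which takes those of miR-365-2-5p further below 0. Of the 5p reads of both copies, copy 1 made up 54.0% (49.9 to 58.0) in anagen, 76.0% (73.4 to 78.4) in catagen and 73.5% (71.2 to 75.7) in telogen. Anagen differed from catagen and from telogen (Fisher's exact test, two-sided, Benjamini-Hochberg adjusted over 3 pairs, p = 1.61e-19 and 6.89e-17), and no difference was detected between telogen and catagen (p = 0.158). As a ratio of 2 counts within a library, this result is free of the scaling. The common 3p arm cannot be divided between the copies.

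The copies also differed in where their 5p arm began. Tags of miR-365-2-5p that started 1 base upstream held 43.3%, 43.6% and 47.0% of its reads in anagen, catagen and telogen. For miR-365-1-5p this start held 2.23%, 1.07% and 1.01%. The upstream start moves the seed of copy 2 from GGGACTT to AGGGACT, and the leading tag of this form had 43, 53 and 78 reads.
miR-365-2-5p, 1 base upstream: gAGGGACTttcaggggcagctgt

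**Figure D4:**
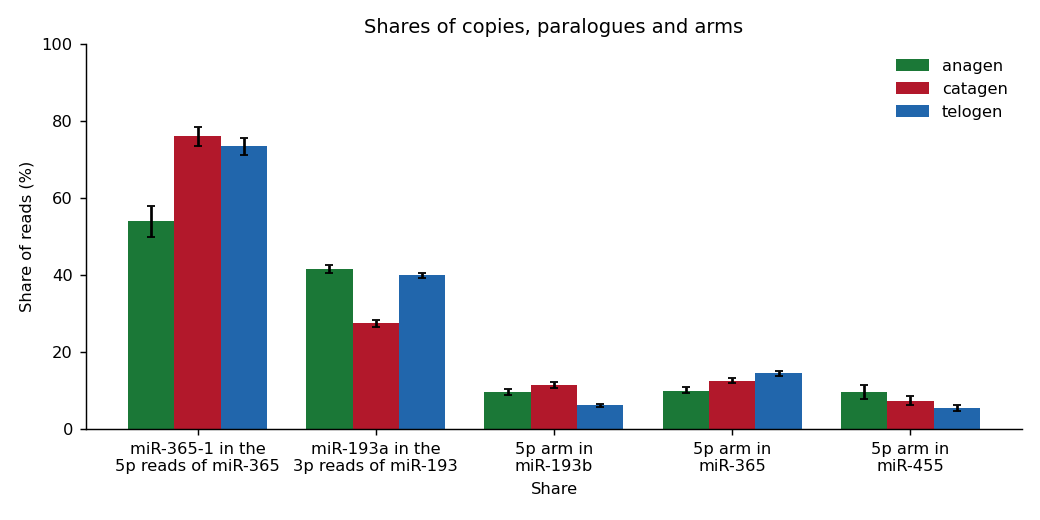
Shares of reads in percent, by library, with 95% Wilson intervals as bars: miR-365-1 among the 5p reads of both miR-365 copies, miR-193a among the 3p reads of both miR-193 relatives, and the 5p arm within miR-193b, miR-365 and miR-455. miR-365-1 is at 54.0% in anagen and at 76.0% and 73.5% in catagen and telogen, and the 5p shares lie between 5.46% and 14.6%.

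The 5p share of miR-365, over both copies, was 10.1% (9.30 to 10.9), 12.6% (11.9 to 13.3) and 14.6% (13.9 to 15.3) in anagen, catagen and telogen. The 5p share of miR-455 went the other way, with 9.61% (7.96 to 11.5), 7.37% (6.24 to 8.68) and 5.46% (4.81 to 6.18). The intervals of anagen and telogen did not overlap in either case, and of the neighbouring values of miR-455 those of anagen and catagen overlapped while those of catagen and telogen did not.

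miR-455-3p was lowest in anagen and highest in telogen. Its log2 ratio was 0.62 for catagen over anagen (0.50 to 0.73, exact test, p = 3.11e-26), 1.33 for telogen over anagen (1.22 to 1.43, p = 8.56e-168) and 0.71 for telogen over catagen (0.63 to 0.79, p = 1.41e-66). Among reads of 21 nt or longer the ratio for telogen over anagen was 1.44. The 5p arm of miR-455 was rare, with 100, 130 and 230 reads in anagen, catagen and telogen, or 6.25, 7.18 and 8.51 TPM. It had the same order as the 3p arm, but its ratio of 0.45 for telogen over anagen (0.10 to 0.80, exact test, p = 0.0104) did not pass the test.

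The 3p arm of miR-455 had the most varied 5′ end of the 3p arms. The main start held 69.6%, 70.5% and 74.2% of its reads in anagen, catagen and telogen. A start 1 base downstream, with the seed AGTCCAT, held 23.8%, 19.9% and 17.2%. The intervals of anagen (21.2 to 26.6) and telogen (16.0 to 18.4) did not overlap. On the 5p arm a start 1 base upstream held 18 of 100, 30 of 130 and 40 of 230 reads, shares with overlapping intervals.
miR-455-3p, main start: gCAGTCCAtgggcatatacacc
miR-455-3p, 1 base downstream: cAGTCCATgggcatatacacca

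An arm was called when its log2 ratio was beyond 1 in either direction with p under 0.01 in the exact test of Audic and Claverie, which is the test of the study, while the joint limit was set here. All 8 arms passed the minimum of 1 TPM in either library. For catagen over anagen 1 of 8 was called, miR-365-1-5p, where 27.4% of the 285 arms tested were called (21.4% higher and 5.96% lower). For telogen over anagen 2 of 8 were called, miR-365-1-5p and miR-455-3p, against 26.7% (20.4% higher and 6.32% lower). For telogen over catagen miR-193a-3p, chosen for this contrast, was past the limit with 1.19, and 14.4% of the arms tested were (6.67% higher and 7.72% lower). The members just inside the limit were miR-365-1-5p at 1.04 for telogen over anagen, and just outside it miR-455-3p at 0.71 for telogen over catagen. All 8 arms had at least 100 reads in every library, and of the arms with at least 100 reads in both libraries 17.9%, 15.2% and 9.64% were called in the 3 pairs. For catagen over anagen and telogen over anagen the shares of the 8 lay near these backgrounds. For telogen over catagen no share is given, since the only member past the limit was miR-193a-3p, chosen for this contrast. The split of calls depended on the scaling: against 61 of 78 and 58 of 76 by clean reads, with the median of ratios 28 of 52 calls were higher in catagen than in anagen and 45 of 72 higher in telogen than in anagen. With scaling to assigned reads 49 of 68 were higher in catagen than in anagen, 84 of 97 higher in telogen than in anagen, and 34 of 49 higher in telogen than in catagen, against 19 of 41 by clean reads. The members' median log2 ratios were 0.33, 0.50 and 0.12 for catagen over anagen, telogen over anagen and telogen over catagen, beside 0.41, 0.27 and -0.11 over all arms. The members' medians include miR-193a-3p, chosen for its low level in catagen, and are a description only. The first pair of comparisons shares the anagen library and the last pair the telogen library.

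**Figure D5:**
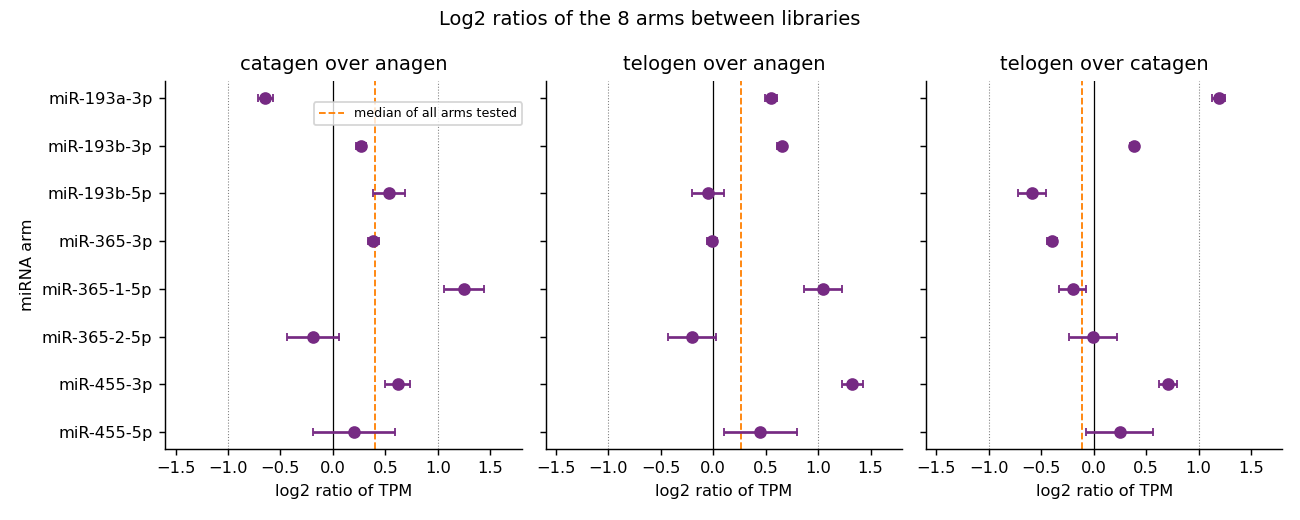
Log2 ratio of TPM of the 8 arms for each pair of libraries, with 95% exact intervals from counting error. Dotted lines mark ratios of -1 and 1 and the dashed line the median of 285 arms tested (0.41, 0.27 and -0.11). miR-365-1-5p at 1.25 and miR-455-3p at 1.33 lie past the limit, and miR-193a-3p lies at -0.64 for catagen over anagen.

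Other miRNAs known from fat cells were compared by the same test. Of 16 listed as promoting fat cells, 12 were measured by tags of their own and 10 were tested. For catagen over anagen and for telogen over anagen 2 of them were called higher, miR-196a (4.63, 13.0 and 22.9 TPM) and miR-375 (6.31, 13.97 and 13.95 TPM), and none was called lower. These 2 of 10 stand beside 21.4% and 20.4% of all arms tested that were called higher in these pairs. For telogen over catagen none was called. The median log2 ratios of this list were 0.38, 0.25 and 0.23. The most abundant of them, miR-143, also found in smooth muscle, stood at 12422, 7474 and 11542 TPM. Of 10 miRNAs listed as restraining fat cells, 8 were measured and only miR-93 was called, higher in catagen than in anagen (153, 329 and 247 TPM), which is 1 of 8 tested beside the same 21.4%. The median log2 ratios of the second list were 0.77, 0.53 and -0.37. Of the adipogenic miR-26a and the restraining miR-27b, the levels were 3415, 4397 and 5416 TPM, and 1529, 1452 and 1121 TPM. On the restraining list miR-27b was the only measured miRNA that was lower in telogen than in anagen. On the promoting list miR-143 and miR-335 were lower in telogen than in anagen by clean reads, and the other measured miRNAs were higher. The higher ones include miR-30d and miR-26b, too rare to be tested, with 2 and 4 reads in anagen. They also include miR-210, miR-182 and miR-30a, with log2 ratios of 0.02, 0.10 and 0.17. The median of ratios shifts these by -0.18, which turns them. Scaling to assigned reads shifts by 0.27, which turns miR-143 (-0.11) and miR-335 (-0.22).

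The libraries also differed in miRNAs of other cell types, whose part in the results above was not tested. Here and in the fat cell lists each miRNA was read from 1 arm of the shortened annotation. Its level can therefore leave out reads of that miRNA, and levels of different miRNAs are not to be compared. The skeletal muscle miRNAs miR-1 and miR-206, 2 of the 4 on the list with tags of their own, summed over anagen, catagen and telogen to 4090, 78286 and 21236 TPM. The red blood cell miRNAs miR-451, miR-144 and miR-486 summed to 1302, 2122 and 876 TPM, within which miR-144 stood at 104, 76.4 and 7.18 TPM and miR-486 at 335, 779 and 438 TPM. The epithelial miR-200b, miR-205 and miR-183, 3 of 4 on the list, summed to 1191, 1943 and 2006 TPM. Most of this sum was miR-205, and miR-183 went the other way with 158, 108 and 101 TPM. Endothelial miR-126 stood at 39.0, 32.0 and 37.1 TPM and the cartilage miRNA miR-140 at 4353, 4901 and 4146 TPM. The white blood cell miRNAs miR-142 and miR-223, 2 of 3, summed to 84.4, 93.5 and 150 TPM, and smooth muscle miR-143 and miR-145 to 12449, 7514 and 11577 TPM, nearly all of it miR-143, while miR-145 stood at 26.8, 40.1 and 35.7 TPM. By clean reads, muscle miRNAs, the red blood cell sum and miR-140 were highest in catagen, as were miR-365-3p, miR-365-1-5p and miR-193b-5p. The white blood cell sum was highest in telogen, as were miR-193a-3p, miR-193b-3p and both arms of miR-455. The epithelial sum was also highest in telogen, by a small margin over catagen that came from miR-205. miR-200b (41.2 and 40.1 TPM) and miR-183 were slightly higher in catagen than in telogen. Endothelial miR-126 and the smooth muscle sum were highest in anagen, as was miR-365-2-5p. miR-140, which like miR-455 is known from cartilage, had a log2 ratio of -0.07 for telogen over anagen, beside 1.33 for miR-455-3p. The cell types that the reads of the 8 arms came from were not tested.

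The arms whose levels most resembled those of the miR-193 relatives were sought among the 149 arms with at least 100 reads in every library, by the distance of their centred log2 levels over the 3 libraries. Nearest to miR-193a-3p were arms of miR-331 (49.8, 25.5 and 70.6 TPM), miR-328 (10.8, 6.79 and 12.6 TPM) and miR-197 (12.4, 8.01 and 14.1 TPM), at distances of 0.25, 0.25 and 0.30. Nearest to miR-193b-3p were arms of miR-877 (16.1, 19.4 and 25.4 TPM), miR-2904 (408, 477 and 615 TPM) and miR-96 (7.75, 8.89 and 11.5 TPM), at distances of 0.0017, 0.043 and 0.064. With 3 libraries such likeness is a description of these libraries.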

How the data were processed

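Small RNAs of 3 skin libraries were sequenced on an Illumina/Solexa Genome Analyzer. The authors removed low-quality reads, adapter contaminants, reads without insert, poly(A) reads and reads shorter than 18 nt, and deposited the read count of every distinct clean tag. These counts are not normalised and no alignment enters them. The filtering records were not used.

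Annotated tags (2697 distinct, from a shortened copy of the annotation) were joined into arms where tags of one miRNA shared 14 bases, and a deposited tag was assigned by its first 18 nt. Tags matching more than 1 arm, 18.0%, 15.9% and 14.2% of clean reads in anagen, catagen and telogen, were left out. The only annotated tag of miR-193a is 32 nt long and begins upstream of the 3p arm, so a match anywhere in an annotated tag was used. The arms and lists described, and the rule that named genes (all arms of the 4 miRNAs, the 3 arms nearest to each miR-193 3p arm, and the lists), were chosen with earlier results of these data known.

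Levels were scaled to clean reads, arms under 1 TPM in both libraries of a pair were left out, and 0 was set to 0.01 TPM. Each pair of libraries was compared by the exact test of Audic and Claverie (two-sided), as in the study, and a call, by a joint limit set here, needed p under 0.01 and a log2 ratio beyond 1 in either direction. Intervals of ratios and levels are exact and those of shares are Wilson intervals, at 95%. A model with replicates could not be fitted. Alternatives were other scalings, other matching rules, tags of 21 nt or longer, other minimum levels, Fisher's exact test, Benjamini-Hochberg adjustment and edgeR 4.0.16 assuming a biological variation (BCV) of 0.4. The test was checked on simulated counts. Python 3.11.15, scipy 1.17.1 and R 4.3.3 were used. The gene table of assembly ARS1.2 was used for gene names only.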

Additional observations from a re-analysis of the deposited data

How the results depend on the processing

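No paired analysis was possible because each stage had 1 library without a replicate number, and no replicate could be left out. Relative to scaling by clean reads, the median of ratios shifted every log2 ratio by -0.34, -0.18 and 0.16 for catagen over anagen, telogen over anagen and telogen over catagen, and scaling to assigned reads by -0.10, 0.27 and 0.37. In this order of pairs, miR-193a-3p had ratios of -0.99, 0.36 and 1.35 with the median of ratios, -0.74, 0.82 and 1.56 with assigned reads, and 0.62, 1.15 and 0.53 with tags of 21 nt or longer, where telogen over anagen passed the limit and telogen over catagen no longer did.

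For catagen over anagen, 47 arms were called with at least 100 reads in both libraries together and 7 by edgeR, and the calls among the 8 arms fell from 1 to 0 with the median of ratios and with edgeR. For telogen over anagen, edgeR called 16 arms, and the 8 arms gave 3 calls, against 2, with tags of 21 nt or longer, 1 call with the median of ratios, 1 with tags that share the first 18 nt of an annotated tag, 1 with annotated tags only and 0 with edgeR. For telogen over catagen, edgeR called 3 arms. miR-193a-3p was chosen for this contrast and is set aside. Among the other member arms the only call under any setting was miR-455-3p, with assigned reads. miR-365-1-5p was no longer called with the median of ratios (0.90 and 0.86 over anagen), and miR-455-3p passed the limit for telogen over catagen with assigned reads (1.08).

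Directions turned for catagen over anagen with the median of ratios in miR-193b-3p (-0.076) and miR-455-5p (-0.14). They turned for telogen over anagen with assigned reads in miR-193b-5p (0.22), miR-365-2-5p (0.072) and miR-365-3p (0.26), and with tags of 21 nt or longer in miR-365-3p (0.043). They turned for telogen over catagen with assigned reads in miR-365-1-5p (0.17) and miR-365-2-5p (0.36), and in miR-365-2-5p also with the median of ratios (0.15) and with annotated tags only (0.049). Of 222 log2 ratios under the alternatives, 11 turned direction, among them miR-193a-3p for catagen over anagen with tags of 21 nt or longer. Apart from the contrasts of miR-193a-3p with catagen, 5 lost a call and 2 gained one. Alternatives that change only the test, the adjustment or the minimum level leave the log2 ratio as it is. Direction could not turn under them, so the 222 are no measure of stability. Counting only tags that share the first 18 nt of an annotated tag left miR-193a-3p with 0, 0 and 2 reads and miR-455-3p with 0, 3 and 11 in anagen, catagen and telogen, so no ratio was computed. With 1 library per stage, depth limits only counting error, and variation between goats could not be estimated. The cause of these changes was not tested.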
